A study of Mus musculus with 61 samples.

Results

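The genes described here were 41 mouse genes, 28 of the interferon response and 13 of antigen presentation, out of 46078 genes in the deposited count tables. They were taken by symbol and sorted by role into 10 sensors and regulators, 11 antiviral effectors, 7 GTPases, 4 MHC class I chains, 6 genes of class I peptide loading and the immunoproteasome, and 3 genes of MHC class II. Of the 41 genes, 39 passed the filter on low counts and were tested. The other two, the antiviral GTPase gene Mx1 and the class II chain gene H2-Aa, never exceeded 3 and 4 counts in any sample.

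Interferons are secreted proteins that cells release when they sense viral RNA or DNA. They bind receptors that act through the kinases Jak1, Jak2 and Tyk2 on STAT proteins, and STAT and IRF factors then switch on genes that block viral replication. The same signals raise the machinery by which a cell shows peptides on its surface: the immunoproteasome cuts proteins, the Tap1 and Tap2 transporter moves the peptides into the endoplasmic reticulum, and tapasin (Tapbp) loads them onto a class I heavy chain paired with B2m. Class II molecules, with their invariant chain Cd74, present peptides mainly on professional antigen-presenting cells.

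RNA was sequenced from mouse pancreatic ductal organoids, three-dimensional cultures of duct cells, of strain C57BL/6. All cultures had been infected with lentiviral vectors for GFP-Ngn3, LSSOrange-Pdx1 and tdTomato-MafA under a doxycycline-inducible TRE3G promoter, together with a Tet-On 3G transactivator driven by the PGK promoter, and were induced for 8 days. A culture received either wild-type Ngn3 (WT) or 6SA Ngn3, a mutant whose phosphorylation sites, serines, are replaced by alanine. Cells were sorted by their reporters into pools of 50 cells, so that cells with Pdx1, MafA or both but without Ngn3 came from the same kinds of culture as cells with Ngn3 and Pdx1, Ngn3 and MafA, or all 3 factors (triple). This gave 12 conditions, 6 with and 6 without Ngn3, each a combination of sorted factors in a WT or a 6SA culture. Replicates 1 and 2 were at passage 2 and replicate 3 at passage 5, so passage and replicate 3 cannot be told apart. All sorted cells carried, by their reporters, Pdx1 or MafA vectors and came from cultures given virus and doxycycline. Uninfected cells and cells with Ngn3 alone were not analysed here.

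Of 61 libraries, 58 passed the quality criteria and were summed into 32 samples, 17 with Ngn3 and 15 without, in 8 conditions with 3 replicates and 4 with 2. Gene counts per sample ranged from 2579583 to 19461008 with a median of 8490758.5, and levels are given in CPM, the count scaled to a library of 1000000 gene counts after TMM scaling. A count of 3, taken as the limit of detection, stood for 0.136 to 1.01 CPM depending on the sample. Neurog3, the gene of Ngn3, lay at 7.87 to 329 CPM in the 17 samples labelled with Ngn3 and at 0 to 0.788 CPM in the 15 without, so this label was met in every sample. Pdx1 and Mafa counts did not separate their labels in the same way: Mafa reached at most 12.7 CPM and was at 0 in the third replicate of 6SA Pdx1+MafA. As a sum, duct markers were present throughout, with the summed level of 8 of them at 11357 to 57359 CPM without Ngn3 and at 1434 to 16830 CPM with it. Markers of immune cells, which carry class II molecules, were mostly faint: the pan-leukocyte gene Ptprc had counts in 1 sample (61), Adgre1 and Tyrobp were at 0 in all 32, and the 11 immune markers summed to at most 45.5 CPM. Not all were absent: Cd68 reached 712 counts in 6SA Ngn3+MafA replicate 1 and Csf1r 157 in 6SA Pdx1+MafA replicate 1. In such pools fewer cells of a type and less RNA per cell cannot be told apart.

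Sequence elements that are known to mediate this response were found in part of the members' promoters. RefSeq promoter windows (250 bases before to 50 bases after a transcription start, GRCm38.p6) were found for 31 of the 41 genes. The core of the interferon-stimulated response element, searched as GAAA, any 2 bases and GAAA on both strands, occurred in the windows of 16 of these 31 genes (51.6%) and of 3.99% of all 27025 genes with such windows. The gamma-activated site, searched as TTCNNNGAA, occurred in 8 of 31 (25.8%) against 9.55%. The letters CAGATG, an E-box of the kind bound by basic helix-loop-helix factors such as Ngn3, occurred in 6 of 31 (19.4%) against 19.2%. The 170 bases before the start are printed 5′ to 3′ for 4 antiviral effectors with the response element, for Isg20, which was called with Ngn3 in the data that follow, and for B2m and H2-D1, the most abundant class I genes. Capitals mark this core or, in Isg20, TTCNNNGAA, on either strand, and overlapping matches run together.
Isg15, chr4:156200819-156200988, minus strand: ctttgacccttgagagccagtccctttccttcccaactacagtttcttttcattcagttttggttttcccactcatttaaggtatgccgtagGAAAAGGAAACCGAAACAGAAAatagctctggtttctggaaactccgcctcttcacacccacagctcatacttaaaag
Ifit1, chr19:34640719-34640888, plus strand: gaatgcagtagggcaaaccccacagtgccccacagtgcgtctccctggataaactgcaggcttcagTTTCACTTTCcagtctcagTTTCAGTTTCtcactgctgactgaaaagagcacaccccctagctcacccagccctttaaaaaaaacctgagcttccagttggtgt
Ifit3, chr19:34583359-34583528, plus strand: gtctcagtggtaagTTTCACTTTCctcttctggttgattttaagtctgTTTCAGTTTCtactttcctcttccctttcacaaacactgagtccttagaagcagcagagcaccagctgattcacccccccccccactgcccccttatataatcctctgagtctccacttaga
Rsad2, chr12:26456453-26456622, minus strand: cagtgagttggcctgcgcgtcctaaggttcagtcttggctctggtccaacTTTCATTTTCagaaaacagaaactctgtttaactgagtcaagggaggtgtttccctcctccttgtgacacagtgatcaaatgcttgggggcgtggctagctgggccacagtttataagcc
Isg20, chr7:78913254-78913423, plus strand: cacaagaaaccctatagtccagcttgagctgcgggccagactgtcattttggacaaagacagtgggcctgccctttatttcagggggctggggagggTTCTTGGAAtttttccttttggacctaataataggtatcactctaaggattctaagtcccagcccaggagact
B2m, chr2:122147517-122147686, plus strand: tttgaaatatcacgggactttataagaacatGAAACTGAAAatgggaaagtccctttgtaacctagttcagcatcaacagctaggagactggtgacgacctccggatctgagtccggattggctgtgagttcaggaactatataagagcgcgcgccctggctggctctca
H2-D1, chr17:35262924-35263093, plus strand: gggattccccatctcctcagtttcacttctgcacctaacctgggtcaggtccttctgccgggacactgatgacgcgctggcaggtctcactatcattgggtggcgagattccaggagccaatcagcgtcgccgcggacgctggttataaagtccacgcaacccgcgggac

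Isg15 held 3 overlapping copies of the response element core, Ifit1 and Ifit3 held 2 each, and Rsad2 and B2m held 1 each. The Isg20 window shown, the most upstream of 3 RefSeq starts, held a gamma-activated site and no response element core, and the H2-D1 stretch held neither. A match is a description of letters and not of binding. Of the 7 genes shown, Rsad2 and H2-D1 also held CAGATG in their windows, 216 bases before the start in Rsad2 and 18 bases after it in H2-D1.

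Among the 41 genes, class I molecules were by far the most abundant and the classical virus-induced effectors were close to absent. Per kilobase of exon, the median level over the 32 samples was 931 CPM for B2m, the light chain of class I, 182 for H2-D1 and 140.1 for H2-K1, the classical heavy chains, and 41 for Tapbp. These were followed by Bst2 (34.5), the tetherin that holds budding virus at the cell surface, and by the transcription factor gene Irf1 (31.6). The levels of 14 genes had a median above 10 CPM and those of 13 a median below 1 CPM. Only 15 genes exceeded 3 counts in all 32 samples, and 9 had no count in at least 1 condition. Isg15, a ubiquitin-like protein that is among the most strongly induced interferon targets, never exceeded 14 counts or 4.32 CPM, and Mx2 never exceeded 1.86 CPM.

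**Figure D1:**
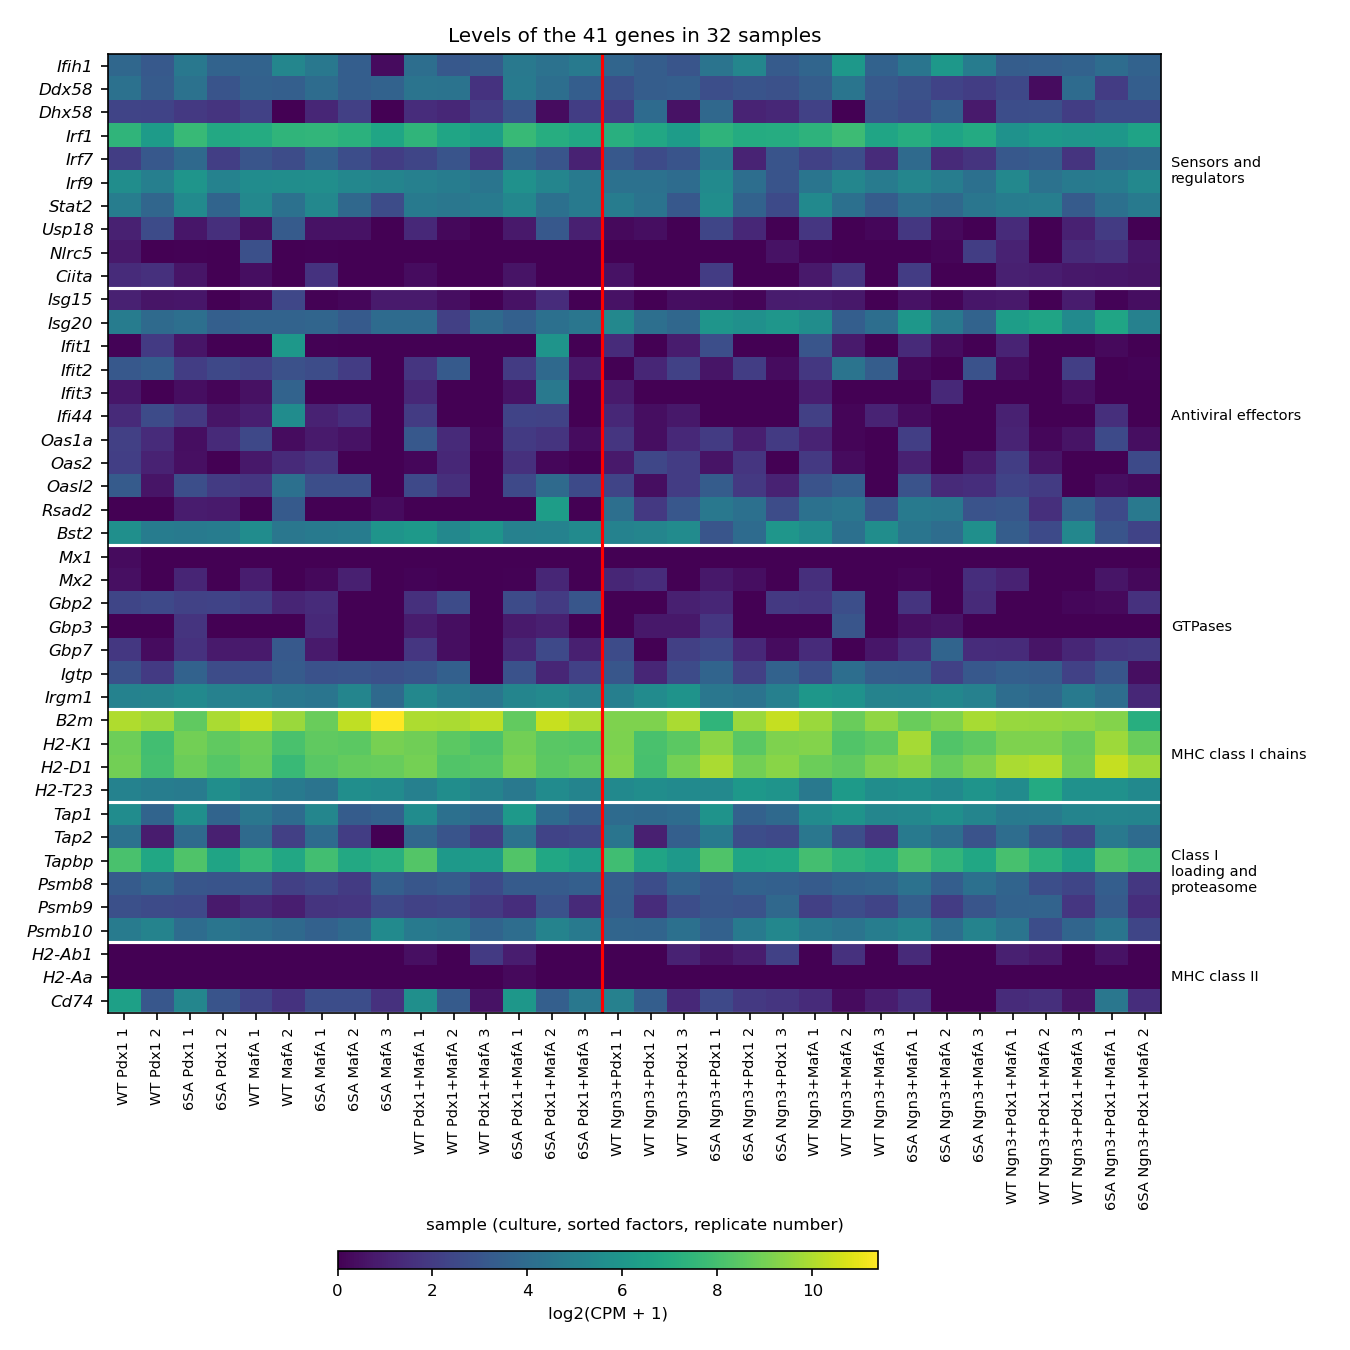
Levels of the 41 genes (rows, by role) in 32 samples (columns), as log2(CPM + 1); the red line separates the 15 samples without Ngn3 from the 17 with it. B2m, H2-K1, H2-D1, Tapbp and Irf1 are bright in every column, while most effectors and GTPases are dark outside single samples.

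Whether Ngn3 changes these genes was asked by the mean difference over the 6 pairs of conditions with and without it. Isg20, H2-D1, H2-T23, Psmb9, Rsad2 and H2-Ab1 were higher with Ngn3, and Cd74, Irf9 and Ifi44 were lower. This made 9 of 39 genes tested past an adjusted p of 0.05 (edgeR quasi-likelihood test, Benjamini-Hochberg over all genes), or 23.1%, where 21.5% of all 24004 genes passed. The 6 higher genes compare with 11.1% of all genes that were higher and the 3 lower genes with 10.5% that were lower, so the share that changed was near that of genes at large. The median log2 fold change of the 39 was 0.12, with 22 positive and 17 negative, against 0.07 for all genes. The 28 interferon response genes gave 2 higher and 2 lower of 27 tested, and the 13 antigen presentation genes 4 higher and 1 lower of 12 tested. In no member did all samples with Ngn3 lie above or below all samples without it, which 0.542% and 0.15% of all genes did. Without replicate 2 the count of called members fell to 3 (Cd74, Isg20 and Rsad2), with 2085 genes called in all.

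The same contrast moved the cell state as a whole, and with it the markers. Of 8 duct markers 5 were lower with Ngn3, and all 6 endocrine markers were higher, their summed level rising from 0.963 to 7.89 CPM without Ngn3 to 470 to 13179 CPM with it. The summed duct markers did not fall to 0 in any sample, but Cftr had no count in WT Ngn3+MafA replicate 2 and in WT Ngn3+Pdx1+MafA replicates 1 and 2. Summed immune markers lay at 3.39 to 28.4 CPM without and at 0.674 to 45.5 CPM with Ngn3, and of the 5 that could be tested 3 had a positive and 2 a negative log2 difference. Only the macrophage gene Csf1r was called, as lower with Ngn3 (log2 fold change -3.12 ± 0.68 SE, edgeR adjusted p = 0.00104), while the more abundant macrophage gene Cd68, at medians of 14.2 CPM both with and without Ngn3, had a log2 difference of 0.39 ± 0.39 (SE, edgeR adjusted p = 0.639). The part of duct, endocrine and immune markers in the results on the 41 genes was not tested.

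Among the class I chains, both a classical and a non-classical heavy chain were higher with Ngn3 while B2m was not. The heavy chains, like the Tap, Tapbp, Psmb8, Psmb9 and class II chain genes, lie in the MHC on chromosome 17 (H2-D1 at chr17:35262730-35267499, plus strand, GRCm38), and B2m lies on chromosome 2. H2-D1 had 211 to 534 CPM (median 412) in samples without Ngn3 and 269 to 1320.0 CPM (median 576) in samples with it, where 10 of 17 samples lay above the highest sample without. Its log2 fold change was 0.77 ± 0.17 (SE), with an edgeR adjusted p of 0.00124, and without replicate 2 it was 0.71 with an adjusted p of 0.0717. H2-T23, the heavy chain of the ligand of an inhibitory receptor on natural killer cells, went from 19.5 to 47.7 CPM (median 32) to 23.2 to 123 CPM (median 46.5), with 8 of 17 samples above all samples without Ngn3. Its log2 fold change was 0.63 ± 0.19 (SE, edgeR adjusted p = 0.0181), but leaving out replicate 1, 2 or 3 gave an adjusted p of 0.0794, 0.190 or 0.0555.

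H2-K1 had 240.3 to 522 CPM (median 389) without Ngn3 and 271 to 912 CPM (median 434) with it, a log2 difference of 0.37 ± 0.18 (SE) that did not pass the test (edgeR adjusted p = 0.166). B2m had 389.9 to 2649 CPM (median 994) without Ngn3 and 138 to 1324 CPM (median 705) with it. Its log2 difference of -0.66 ± 0.27 (SE) had the opposite sign to that of the heavy chains and did not pass either (edgeR adjusted p = 0.0824). DESeq2 and a fit with the replicate number as a term called H2-K1 as higher. B2m was called lower in that fit, without replicate 1, with no filter on genes and with the first technical repeat alone. Reads can be shared between these heavy chains: 12.8% of the 50-base windows of H2-D1, 9.63% of those of H2-K1 and 14.5% of those of H2-T23 also occurred in another gene, mostly of the same family, while B2m had none.

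Of the 6 peptide loading and immunoproteasome genes only Psmb9 was called with Ngn3 by the main test. Tap2 was called higher in a fit with the replicate number as a term, and Tap1 without replicate 1. Psmb9, a catalytic subunit of the immunoproteasome, had 0.788 to 6.36 CPM (median 2.89) without Ngn3 and 1.69 to 13.5 CPM (median 6.51) with it. In 9 of 17 samples it exceeded every sample without Ngn3, and its log2 fold change was 1.08 ± 0.36 (SE, edgeR adjusted p = 0.0303). This call was lost without replicate 1, 2 or 3 (adjusted p = 0.394, 0.138 and 0.0709). Psmb8, another such subunit, had medians of 7.35 and 9.63 CPM and a log2 difference of 0.35 ± 0.26 (SE, edgeR adjusted p = 0.429). Tapbp, the most abundant of the group at 69.0 to 320 CPM without and 69.9 to 302 CPM with Ngn3, differed by 0.08 ± 0.28 (SE, edgeR adjusted p = 1.00). Tap1 had a median of 14.9 CPM without and 34.6 CPM with Ngn3, but its log2 difference over matched conditions was 0.26 ± 0.31 (SE, edgeR adjusted p = 0.729).

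Of the class II genes only Cd74 was abundant enough to follow. It had 0.482 to 86.8 CPM (median 7.55) without Ngn3 and 0 to 31.4 CPM (median 1.77) with it, and 3 samples with Ngn3 lay below all samples without. The log2 fold change was -2.35 ± 0.57 (SE, edgeR adjusted p = 0.00297) and stayed past the threshold in each of the 13 alternatives run, with a highest adjusted p of 0.0497 without replicate 2. The high values belonged to replicate 1 of cells sorted for Pdx1 without Ngn3, at 86.8 and 36.5 CPM with Pdx1 and at 49.2 and 64.8 CPM with Pdx1 and MafA, in WT and 6SA cultures. H2-Ab1, the beta chain of class II, had at most 26 counts in any sample. It exceeded 3 counts in 9 of 17 samples with Ngn3 and in 3 of 15 without, and its call as higher (edgeR adjusted p = 0.0305) was lost with Ngn3 as 1 term of an additive model (adjusted p = 0.148) and when any 1 replicate was left out (0.9999 or 1). Ciita, the master regulator of class II genes, was at a median of 0 CPM without and 0.521 CPM with Ngn3 and did not pass the test (log2 difference 0.94 ± 0.89 SE, edgeR adjusted p = 0.598).

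**Figure D2:**
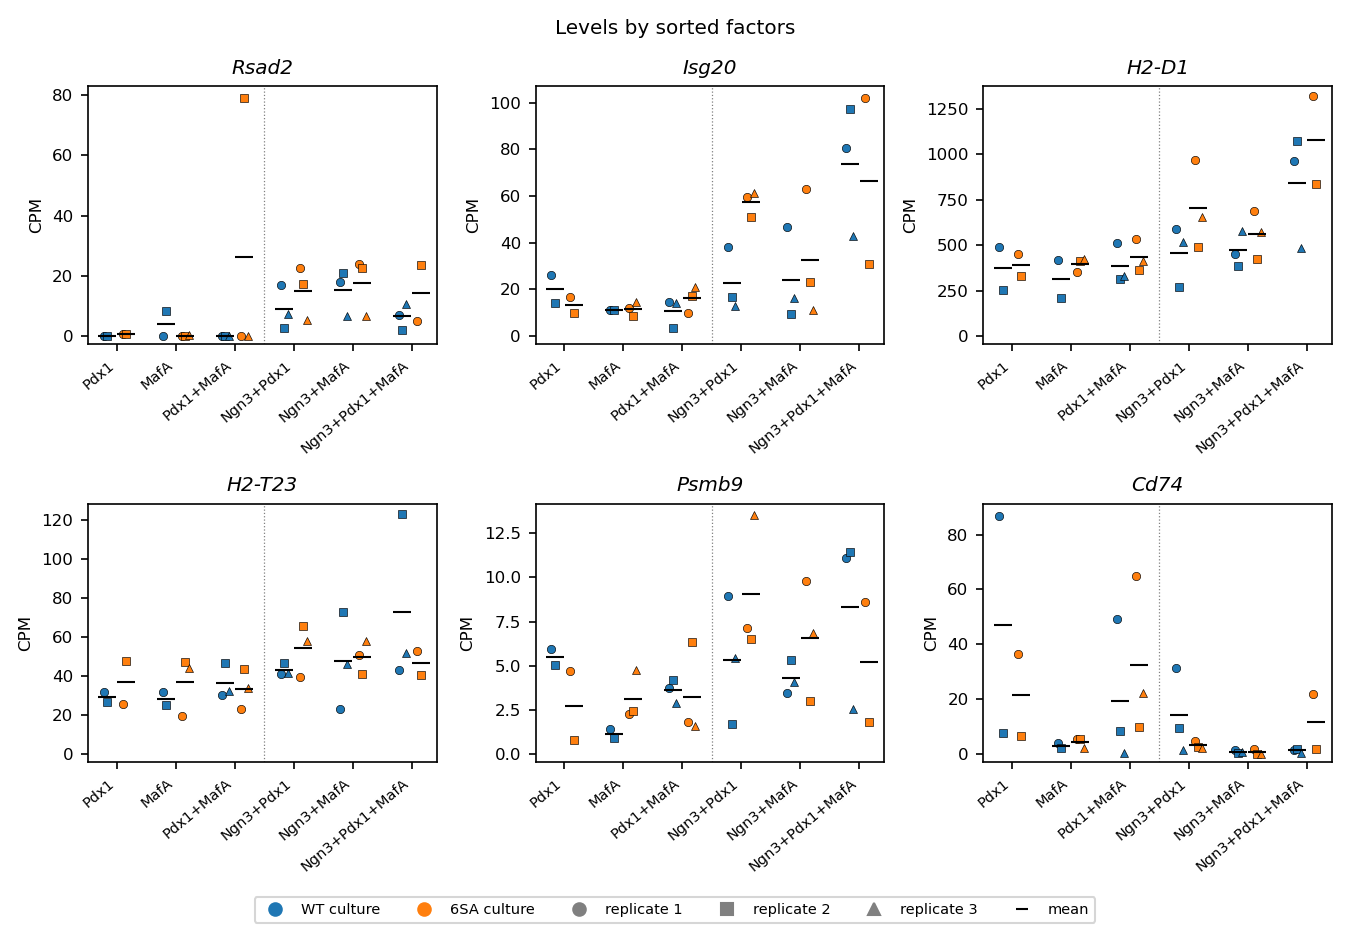
Levels in CPM (vertical axes, linear) of Rsad2, Isg20, H2-D1, H2-T23, Psmb9 and Cd74 by sorted factors (horizontal axes), with 1 point per sample, colour for WT or 6SA culture, shape for replicate and a dash for the mean. To the right of the dotted line, with Ngn3, Rsad2 is above 0 in all 17 samples, and Isg20 and H2-D1 are highest with all 3 factors, up to 102 and 1320.0 CPM.

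Among the antiviral effectors, Isg20 and Rsad2 rose with Ngn3 and no other effector did. Isg20 (chr7:78913424-78920396, plus strand, GRCm38), an exonuclease that degrades viral RNA, had 3.49 to 26.2 CPM (median 14.2) without Ngn3 and 9.52 to 102 CPM (median 42.7) with it. In 11 of 17 samples it lay above all samples without Ngn3. Its log2 fold change of 1.61 ± 0.29 (SE, edgeR adjusted p = 0.000125) passed the threshold in each of the 13 alternatives.

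Rsad2 (chr12:26442746-26456452, minus strand, GRCm38) encodes viperin, an enzyme that makes a chain-terminating nucleotide. It was at 0 in 10 of the 15 samples without Ngn3 and reached 0.264, 0.788 and 0.840 CPM in a further 3 (6SA MafA replicate 3 and both 6SA Pdx1 replicates). WT MafA replicate 2, with 8.33 CPM, and 6SA Pdx1+MafA replicate 2, with 79.0 CPM, stood far above the rest. With Ngn3, Rsad2 was detected in all 17 samples. Cells with Ngn3 and Pdx1 had 17, 2.70 and 7.38 CPM in WT cultures and 22.5, 17.2 and 5.25 CPM in 6SA cultures. Cells with Ngn3 and MafA had 17.8, 21.0 and 6.66 CPM and then 24.0, 22.5 and 6.57 CPM, and triple cells had 7.13, 1.90 and 10.6 CPM and then 4.95 and 23.5 CPM. No Ngn3 sample was below the detection limit, while 11 of 15 samples without Ngn3 had 3 counts or fewer. All 29 pools of 50 cells kept from Ngn3 conditions held more than 3 counts of Rsad2, against 4 of 29 pools without Ngn3. Since a condition with no count leaves the mean of log differences undefined, the size of the change was taken from an additive model with 1 Ngn3 term, which gave a log2 fold change of 4.43 ± 1.08 (SE, edgeR adjusted p = 0.00248).

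The other effectors were mostly near the limit of detection. Bst2 had 21.9 to 67.6 CPM (median 32.4) without Ngn3 and 3.91 to 61.3 CPM (median 20.2) with it. Its log2 difference of -0.76 ± 0.29 (SE) did not pass (edgeR adjusted p = 0.0645). Bst2 was called lower without replicate 3, with no filter on genes, with the first technical repeat alone and with the replicate number as a term. Ifi44 had up to 45.3 CPM (median 1.53) without and up to 3.47 CPM (median 0.130) with Ngn3. It was called lower, by 2.75 ± 0.81 on the log2 scale in the additive model (SE, edgeR adjusted p = 0.0117), but without replicate 1 or 2 the adjusted p of the averaged contrast was 1 or 0.395, and without 2 single pools in which effectors were high it was 0.0519. Isg15 (log2 difference -0.69 ± 0.72 SE, edgeR adjusted p = 0.660) and Oas2 (0.83 ± 0.86 SE, adjusted p = 0.658) did not pass. Ifit2 did not pass either, but was called lower by DESeq2, by another dispersion setting of edgeR and with no filter on genes. It was also called lower with the replicate number as a term and without replicate 3. Ifit2 had counts in 26 of 29 pools without Ngn3 and in 16 of 29 with it. Ifit1 and Ifit3 had medians of at most 0.204 CPM with and without Ngn3, and 51.2% of the 50-base windows of Ifit3 and 57.6% of those of Oas1a were shared with a neighbouring copy, so that their counts are uncertain.

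No GTPase was called with Ngn3, with 0 of 6 tested called and 1 at an unadjusted p under 0.05 by edgeR. DESeq2 called none, and Gbp2 was called lower only under another dispersion setting of edgeR and in 2 of the other alternatives. Irgm1, an immunity-related GTPase that acts on vacuoles and autophagy, was the most abundant, at 14.0 to 41.6 CPM (median 31.4) without and 1.39 to 64.5 CPM (median 29.6) with Ngn3. Igtp, of the same family, had medians of 5.86 and 7.14 CPM.

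Of the sensors and regulators edgeR called only Irf9, a DNA-binding transcription factor of the interferon response. Ddx58, which encodes the viral RNA sensor RIG-I, did not pass (log2 difference -0.90 ± 0.35 SE, edgeR adjusted p = 0.0727) but was called lower by DESeq2 and by the additive model (adjusted p = 0.0431). Irf9 had 20.1 to 59.1 CPM (median 34.8) without and 6.68 to 42.3 CPM (median 24.1) with Ngn3, where 7 of 17 samples lay below all samples without. The log2 fold change of Irf9 was -0.60 ± 0.21 (SE, edgeR adjusted p = 0.0407) and was not past the threshold without replicate 1, 2 or 3 (adjusted p = 0.356, 0.214 and 0.10). Irf1 had medians of 133 and 111 CPM and a log2 difference of -0.39 ± 0.17 (SE, edgeR adjusted p = 0.10). Nlrc5, the activator of class I genes, exceeded 3 counts in only 7 of 32 samples.

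**Figure D3:**
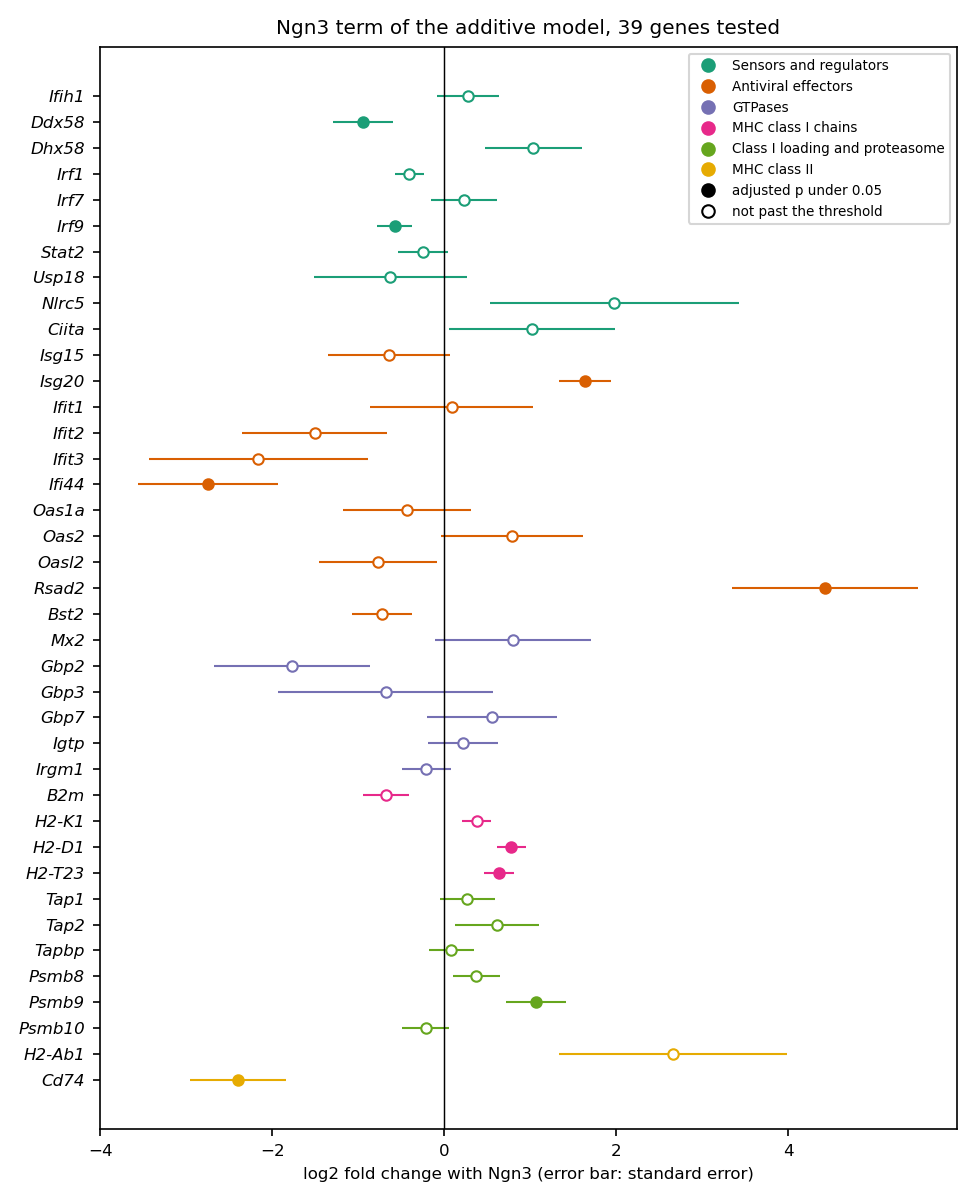
Log2 fold change with Ngn3 (horizontal axis; point, estimate; bar, standard error) of the 39 genes tested, from the additive model (25.4% of all genes called), coloured by role and filled where the edgeR adjusted p is under 0.05. The 9 filled points lie on both sides of 0, from Ifi44 and Cd74 below -2 to Rsad2 at 4.43; they include Ddx58 and not H2-Ab1, unlike the 9 genes called by the averaged contrast.

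How far the Ngn3 difference depended on the partner factor was asked in 3 contrasts. With Pdx1 as partner no member was called (1.49% of all genes were; 6 members at an unadjusted p under 0.05; DESeq2 called 1, Rsad2). With MafA none was called either (4.67% of all genes; 9 members at an unadjusted p under 0.05; DESeq2 called Psmb8 and Rsad2). With both partners 6 of 39 were called against 17.8% of all genes, namely Isg20, H2-D1 and Nlrc5 as higher (9.42% of all genes) and Bst2, Irf1 and Irgm1 as lower (8.4%).

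Isg20 was at 3.49 to 21.0 CPM in the 6 samples with Pdx1 and MafA and at 80.4, 97.4, 42.7, 102 and 30.9 CPM in the 5 triple samples (WT replicates 1 to 3, then 6SA replicates 1 and 2), so the groups did not overlap. Its log2 fold change was 2.40 ± 0.48 (SE, edgeR adjusted p = 0.00079). H2-D1 went from 312 to 534 CPM to 964, 1076, 486, 1320.0 and 836 CPM, where WT replicate 3 alone overlapped the samples without Ngn3. Its log2 fold change was 1.22 ± 0.29 (SE, edgeR adjusted p = 0.00359), with an adjusted p of 0.114 without replicate 2. Among the 3 genes that were lower, 1 triple sample each overlapped the samples without Ngn3. Bst2 went from 30.6 to 67.6 CPM to 9.07, 4.83, 37.0, 6.65 and 3.91 CPM, a log2 fold change of -2.21 ± 0.54 (SE, edgeR adjusted p = 0.00447). The 37.0 CPM belonged to the passage 5 replicate, and without replicate 2 the adjusted p was 0.164.

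Irf1, a transcription factor that induces class I and immunoproteasome genes, went from 80.1 to 204 CPM to 55.3, 68.2, 61.3, 64.0 and 95.1 CPM, with a log2 fold change of -0.92 ± 0.29 (SE, edgeR adjusted p = 0.0265) that did not pass without replicate 1 (-0.37, adjusted p = 0.646) or 2 (adjusted p = 0.153). Irgm1 went from 21.3 to 40.2 CPM to 15.9, 13.5, 23.8, 15.9 and 1.39 CPM, with a log2 fold change of -1.36 ± 0.40 (SE, edgeR adjusted p = 0.0185) and an adjusted p of 0.401 without replicate 2, which holds the lowest of these values. Nlrc5 had 0 counts in all 6 samples with Pdx1 and MafA and 14, 0, 12, 29 and 7 counts in the triple samples (edgeR adjusted p = 0.0174, and 0.144, 0.107 and 0.0517 without replicate 1, 2 and 3). In triple cells H2-D1 was thus higher and Irf1 lower, and the Nlrc5 counts stood close to the limit of detection.

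The difference between partners was tested as an interaction, the Ngn3 effect with both partners minus its mean with Pdx1 or MafA alone. In edgeR no member passed it (0.158% of all genes did), while DESeq2 called Bst2 and Irgm1 as lower, among 454 genes. The interaction was -2.18 ± 0.64 for Bst2, -1.67 ± 0.49 for Irgm1, 1.20 ± 0.58 for Isg20 and 0.66 ± 0.35 for H2-D1 on the log2 scale (SE, edgeR adjusted p = 0.181, 0.186, 0.550 and 0.626). The edgeR fit without replicate 1 called Irgm1, the one without replicate 3 called Bst2 and the one without replicate 2 called none, so for these genes the call turned on the tool and on single replicates. Among Ngn3 cells, adding Pdx1 to Ngn3 and MafA called Irgm1 as lower (log2 fold change -1.73 ± 0.41 SE, edgeR adjusted p = 0.0221), 1 member against 2.72% of all genes. That call was lost without replicate 2. Adding MafA to Ngn3 and Pdx1 called none (1.88% of all genes; 6 members at an unadjusted p under 0.05; DESeq2 called 3). A difference anywhere among the 12 conditions was found for Isg20, Cd74 and Rsad2 (edgeR F-test, adjusted p = 0.0105, 0.0243 and 0.0372), 3 of 39 against 7.2% of all genes.

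Whether the 6SA form acts differently from WT Ngn3 on these genes was asked next, and no member was called. Between 6SA and WT Ngn3 cells 0 members and 0.0% of all genes were called by edgeR (4 members and 1421 genes at an unadjusted p under 0.05), and DESeq2 called 26 genes and no member. H2-D1 had a median of 515 CPM in the 9 WT Ngn3 samples and of 672 CPM in the 8 6SA Ngn3 samples, a log2 difference of 0.41 ± 0.23 (SE, edgeR adjusted p = 0.876). Isg20 had medians of 38.3 and 55.3 CPM, a log2 difference of 0.54 ± 0.37 (SE, edgeR adjusted p = 0.934). Within WT cultures alone the Ngn3 contrast called Rsad2 and Isg20 (8.59% of all genes), and within 6SA cultures alone it called Rsad2, Isg20, H2-D1, Nlrc5 and Ifi44 (14.1% of all genes). The difference between those contrasts called 0 members and 0.0% of genes in edgeR (647 genes at an unadjusted p under 0.05), and DESeq2 called 5 genes, among them Rsad2. Cells without Ngn3 from the 6SA and WT cultures, the background for this comparison, gave 0 members and 0.0% of genes (591 genes and 1 member at an unadjusted p under 0.05), and DESeq2 called 8 genes with Rsad2 among them. Pdx1 against MafA without Ngn3 also gave 0 members and 0.0% of genes (675 genes and 1 member at an unadjusted p under 0.05, and DESeq2 called 1 member).

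Tapbp, Tap1 and Tap2, which did not pass the main test for Ngn3, differed between replicates. Tapbp had 194 to 320 CPM (median 280.2) in the 12 samples of replicate 1, 69.0 to 214 CPM (median 111) in the 12 of replicate 2 and 69.9 to 144 CPM (median 97.4) in the 8 of replicate 3. Tap1 had medians of 41.1, 14.8 and 14.5 CPM and Tap2 medians of 18.2, 4.68 and 4.41 CPM in the same order. In a fit with the replicate number as a term, which was read after these values were seen, replicate 2 was lower than replicate 1 by 1.16 ± 0.15 for Tapbp, 1.08 ± 0.28 for Tap1 and 1.99 ± 0.40 for Tap2 on the log2 scale (SE, edgeR adjusted p = 4.55e-06, 0.0069 and 0.000814).

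Between those replicates, both at passage 2, 11 of 39 members were called, 1 higher (H2-T23) and 10 lower, against 17.6% of all genes, 6.31% higher and 11.3% lower. The 10 that were lower were Tapbp, Tap1, Tap2, Cd74, H2-K1, H2-D1, Isg20, Stat2, Oas1a and Ciita. The median over the 39 was -0.61, and over all genes -0.25. Replicate 1 samples were also deeper, with 9826272 to 19461008 counts against 2579583 to 9952794 in replicate 2. Part of Tapbp is shared with other annotated genes, with 23.2% of its 50-base windows. The part of depth and of shared windows in this result was not tested.

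At passage 5, Bst2 was higher and Tapbp lower than at passage 2, which made 2 of 39 members against 8.23% of all genes, 3.15% higher and 5.07% lower (17 members at an unadjusted p under 0.05; DESeq2 called 13, 1 higher and 12 lower). The median over the 39 was -0.68 with 30 negative, and over all genes -0.26. Bst2 had 37.0 to 61.3 CPM (median 48.1) in the 8 samples at passage 5 and 3.91 to 67.6 CPM (median 25.3) in the 24 at passage 2, a log2 fold change of 1.20 ± 0.27 (SE, edgeR adjusted p = 0.00791). It passed the threshold in all 10 alternatives run. Tapbp had a log2 fold change of -1.01 ± 0.30 (SE, edgeR adjusted p = 0.0344) against replicates 1 and 2, but of -0.32 (adjusted p = 0.507) against replicate 2 alone. Without replicate 2 as a reference 14 members were called, and without replicate 1 only Bst2. No member had a passage difference that itself differed with Ngn3 (0.0% of all genes; 2 members and 1426 genes at an unadjusted p under 0.05; DESeq2 called 2 members).

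**Figure D4:**
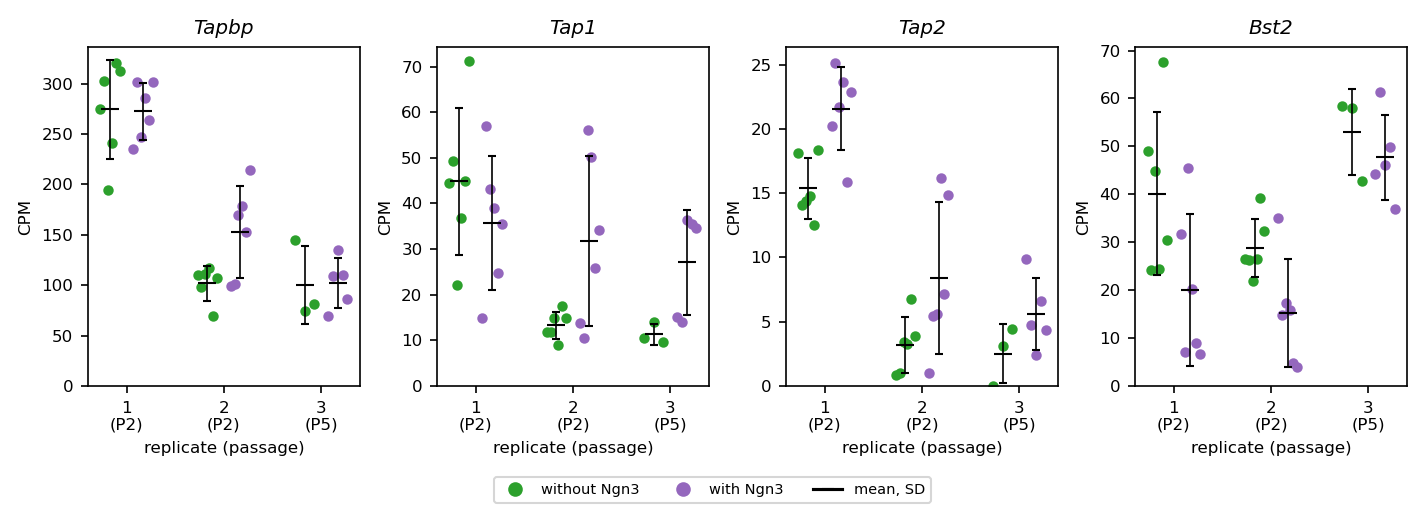
Levels in CPM (vertical axes, from 0) of Tapbp, Tap1, Tap2 and Bst2 by replicate and passage (horizontal axes), with 1 point per sample, green without and purple with Ngn3, and the mean with SD in black. Tapbp in replicate 1 lies at 194 CPM or more, and Bst2 in replicate 3 at 37.0 CPM or more.

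Ifnb1, Ifit1 and Ifit3 were high in single pools of 50 cells and in no whole condition. A pool without Ngn3, the second technical repeat of 6SA Pdx1+MafA replicate 2, had 25.1 CPM of Ifnb1, the gene of interferon beta, on plain library totals. It also had 970.0 CPM of the chemokine gene Cxcl10, 169 of Rsad2, 107 of Ifit1 and 50.4 of Ifit3. The first repeat of the same replicate, another pool of 50 cells, had 0, 16.4, 0.22, 12.2 and 0 CPM of these 5 genes. Both pools are technical repeats of one replicate, so these genes differed within a replicate.

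In the same pool Isg15 stood at 3.4 CPM, Ifi44 at 0.93 CPM and H2-D1 at 429 CPM, against a median over pools of 498 for H2-D1. The only pool of WT MafA replicate 2 had 63.2 CPM of Ifit1, 44.0 of Ifi44, 11.1 of Ifit3, 8.08 of Rsad2 and 4.19 of Isg15, with no count of Ifnb1. Of all kept counts of a gene, a single pool held 57.4% for Ifit3, 37.3% for Ifit1, 35.9% for Nlrc5, 27.9% for Ifi44 and 17.2% for Rsad2. Leaving out these 2 pools, chosen after their values were seen, gave 6 members called with Ngn3 (Rsad2, Isg20, H2-D1, H2-T23 and Psmb9 higher, Cd74 lower) and 4790 genes. Over the 39 members tested the median SD between pools of one replicate was 0.744 on the log2(CPM + 1) scale.

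**Figure D5:**
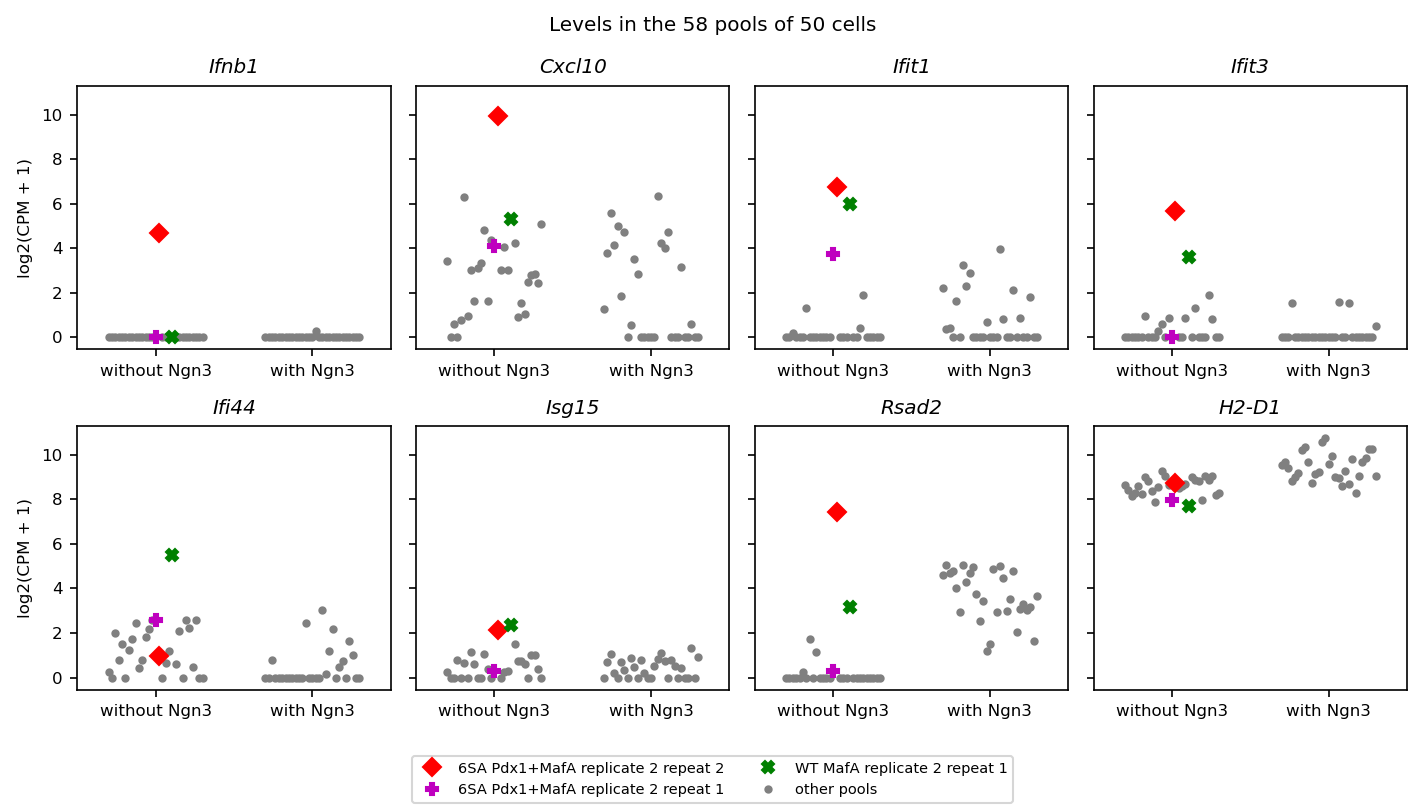
Levels as log2(CPM + 1) on plain totals (vertical axes) in the 58 pools of 50 cells, 29 without and 29 with Ngn3 (horizontal axes), for Ifnb1, Cxcl10 and 6 members. The red diamond, the second repeat of 6SA Pdx1+MafA replicate 2, is high for Ifnb1, Cxcl10, Ifit1, Ifit3 and Rsad2 and not for Ifi44 or H2-D1. Its sister pool (magenta) is far lower for each of the genes that are high, but still holds Cxcl10 and Ifit1.

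Upstream of these genes, the receptors were expressed and the ligands had few or no counts. Of 9 interferon genes looked for, Ifnb1 had 81 counts in the sample just described and 2 counts in 1 other, Ifna1, Ifna4 and Ifng had none, and Ifna2 had at most 3. Ifne had 16 counts in 6SA Ngn3+Pdx1+MafA replicate 2 and 7 in WT Ngn3+Pdx1+MafA replicate 3. Ifnl3 and Ifnl2 had 15 and 8 counts in 6SA Ngn3+MafA replicate 1, and Ifnk had at most 6 in any sample. All 6 receptor chains were expressed, with Ifngr1 highest at 76.7 to 1388 CPM, and none was called with Ngn3 by edgeR (2 at an unadjusted p under 0.05) or DESeq2, while another dispersion setting of edgeR called Ifnlr1 as lower.

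Of 18 signalling genes tested, edgeR called 4 as lower with Ngn3 (10.5% of all genes were) and none as higher. DESeq2 called the same 4 as lower and 2 others, Zbp1 and Jak1, as higher. Tlr3, an endosomal receptor for double-stranded RNA, fell from 22.7 to 112 CPM (median 84.7) to 2.59 to 33.3 CPM (median 13.1), with 12 of 17 samples below all samples without Ngn3. Its log2 fold change of -2.59 ± 0.30 (SE, edgeR adjusted p = 3.07e-07) exceeded that of every member whose fold could be estimated in the same contrast. Myd88, the adaptor of other Toll-like receptors, had medians of 48.0 and 27.0 CPM, with 13 of 17 samples below all samples without Ngn3 (log2 fold change -0.78 ± 0.14 SE, edgeR adjusted p = 0.000195). Tmem173, which encodes the adaptor STING of DNA sensing, had medians of 122 and 73.2 CPM (-0.70 ± 0.15 SE, adjusted p = 0.000788), and Socs3, a feedback inhibitor of cytokine receptors, medians of 44.4 and 28.1 CPM (-0.77 ± 0.26 SE, adjusted p = 0.0295).

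Among 22 further interferon targets tested, Trim25, a ubiquitin ligase of RNA sensing, and Lgals3bp, a secreted glycoprotein, were higher with Ngn3, with log2 fold changes of 0.72 ± 0.19 and 0.83 ± 0.26 (SE, edgeR adjusted p = 0.00719 and 0.0226). Ifitm3, which blocks viral entry, was lower, at medians of 114 and 68.5 CPM (log2 fold change -1.47 ± 0.32 SE, edgeR adjusted p = 0.000957). Ifi47, Trim30a and Cxcl10 were called lower too (adjusted p = 0.00701, 0.0172 and 0.0015), but not with the additive Ngn3 term (0.0926, 0.0562 and 0.124), and Ifi47 and Trim30a stayed under 8.64 and 3.08 CPM. None of 17 further antigen presentation genes was called by edgeR (3 at an unadjusted p under 0.05), and DESeq2 called 2, H2-M3 and H2-DMa, as higher. Over all 64 further pathway genes tested, edgeR called 2 as higher and 8 as lower, against 11.1% and 10.5% of all genes, and their median log2 fold change was -0.13 against 0.07 for all genes.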

How the data were processed

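Cells were sorted in pools of 50 and libraries were made with a Smart-seq2-type protocol and Nextera XT. The authors aligned reads with GSNAP to mm10, counted them per Ensembl gene with HTSeq (0.5.3p3) and deposited raw counts, without normalization. Whether counting used strand is not given in the sources used here. The authors' quality criteria (under 25% spike-in reads, over 1000000 gene counts, over 10000 genes detected) were applied here and left out 3 of 61 libraries, all of triple cells, fewer than the study left out. Rows that name no gene were left out of library sizes; ambiguous reads made up 3.44% to 14.2% of a library. Technical repeats were summed per replicate. The test took in 24004 genes that had counts in 5 or more libraries and a variance above 0.001, after the authors' filter. The main test was edgeR 4.0.16 (quasi-likelihood, TMM, R 4.3.3) in 1 model of 12 conditions, with Benjamini-Hochberg adjustment over all genes tested and a threshold of 0.05. DESeq2 1.42.0, other filters, scalings, library sets, left-out replicates and a replicate block were alternatives. For 7 tested members a condition held no count, so that no standard error is given for their averaged contrasts. The model was tested on simulated counts. The series names its replicates as biological, and no more is said of their origin. The p-values therefore measure the spread between samples of a condition, which were treated as independent although replicate numbers run across conditions. That spread also holds the differences between pools of 50 cells. Standard errors come from the fit across samples, and limits of detection cover counting error only.

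Named are the 2 most and 2 least abundant members of each role, every member called with Ngn3, with passage or between Ngn3 forms, those never over 3 counts, and, of 75 further pathway genes (74 found, 64 tested), ligands, receptors and those called with Ngn3. A gene of this rule is not reported here. Genes called only with both partners, between replicates or by an alternative, high in single pools, or given beside a marker fall outside this rule and were named after their values were seen. The members and all gene lists were chosen with earlier results of these data known.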

Additional observations from a re-analysis of the deposited data

Results flagged for a closer look

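Of 3 libraries of triple cells left out for low depth, 2 held members called as higher with Ngn3 above the highest pool without Ngn3. In the second repeat of 6SA Ngn3+Pdx1+MafA replicate 2, with 241563 gene counts, H2-D1 had 613 CPM, Isg20 103 CPM and Psmb9 20.7 CPM on plain totals, each above that pool. In the first repeat of WT Ngn3+Pdx1+MafA replicate 2, with 625650 gene counts, H2-T23 had 62.3 CPM and Isg20 84.7 CPM, both above it. At this depth the Psmb9 value rested on few counts, and 45.3% and 41.5% of the reads of these 2 libraries were not aligned. Only values above that pool are listed, so the other called members in these libraries are not given. The libraries entered no comparison other than the alternative with all libraries.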

How the results depend on the processing

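The counts of members called, out of those tested, moved with the processing as follows, and the cause was not tested. For Ngn3 against no Ngn3 (9 called), the replicate block gave 14, WT cultures alone 2 and 6SA cultures alone 5, and leaving out a replicate gave 3 to 9. With Pdx1 as partner (0), DESeq2, the first technical repeat, the block and the set without 2 pools gave 1 each and no filter 3. With MafA (0), DESeq2 gave 2, no filter 5, the other dispersion setting, the first repeat and the set without 2 pools 1 each, the block 3, and leaving out a replicate 1 to 3. With both partners (6), DESeq2 and the other dispersion setting gave 10, no filter and the block 12, and leaving out a replicate 2 to 9. For MafA added to Ngn3 and Pdx1 (0), DESeq2 and no filter gave 3, the other dispersion setting, all libraries and the first repeat 1, the block 5, and leaving out a replicate 0 to 3. For Pdx1 added to Ngn3 and MafA (1), DESeq2 and the block gave 6, no filter 7, the other dispersion setting 4, all libraries 2, the first repeat 0, and leaving out a replicate 0 to 2. For any difference among 12 conditions (3), DESeq2 and the block gave 6, no filter 11, the other dispersion setting 7, and leaving out a replicate 1 to 9. For passage (2), DESeq2 gave 13, no filter 14, the other dispersion setting 5, all libraries 4, and leaving out a replicate 1 to 14. DESeq2 gave 1 member, and edgeR 0, for 6SA against WT cultures without Ngn3, for the Ngn3 effect by form and for Pdx1 against MafA, where no filter gave 1 as well. For the Ngn3 effect by partner (0), DESeq2 gave 2, no filter 4, the block 1 (Nlrc5), and leaving out a replicate 0 to 1. The passage effect by Ngn3 (0) had 2 by DESeq2 and 1 with no filter.

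No sign was reversed among the results and alternatives run. Of 9 members called with Ngn3, Rsad2, Isg20 and Cd74 passed in all 13 alternatives. The lowest count with Ngn3, 3, came without replicate 2. Over all genes, 5168 were called with Ngn3 and 2085 without replicate 2. With Pdx1 as partner 358 genes were called by edgeR, 911 by DESeq2, 1273 with no filter and 1011 with the block. With MafA the counts were 1121, 1928, 2077 and 2123, and 138 without replicate 2. With passage edgeR called 1975 genes, DESeq2 4106, no filter 3418 and the set without replicate 2 5025. Among 12 conditions the counts were 1729, 3257 by DESeq2, 4446 with no filter, 3211 with the block and 160 without replicate 2. For 6SA against WT in Ngn3 cells edgeR called 0 genes, DESeq2 26, no filter 239 and the set without replicate 1 31. The additive term, the set without 2 pools, the Ngn3 effect by partner and the replicate contrast were chosen after seeing the data.

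The replicate numbers are shared across conditions. Of 14 same-numbered pairs of samples, 12 deviated together (correlation over 0.1), with correlations of -0.387 to 0.746, and 24 of 28 samples correlated best with their own number, a hint from the data. The labels give the kind of culture of the cells without Ngn3 but not that a number marks a shared culture, and not every pair correlated, so the numbers were not taken as pairs. With the replicate block 6620 genes and 14 members were called with Ngn3, the 9 members of the fit without it, H2-K1 and Tap2 as higher and B2m, Bst2 and Ifit2 as lower.

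Depth limits the weakest genes: 3 counts stood for up to 1.01 CPM, 13 members had a median under 1 CPM, and 2 to 3 replicates a condition limit single contrasts.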

Other observations

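B2m differed between 6SA and WT cultures in opposite directions in replicates 1 and 2, a pattern noticed after the values were seen and not tested. In replicate 1 each of the 6 sorted combinations had less B2m in the 6SA culture. Cells with Pdx1 had 1026 CPM in the WT and 389.9 CPM in the 6SA culture, cells with MafA 1456 and 441 CPM, and cells with both 999 and 393 CPM. With Ngn3 the values were 582 and 175 CPM with Pdx1, 802 and 434 CPM with MafA and 792 and 612 CPM in triple cells. In replicate 2 it was higher in the 6SA culture in 5 of 6 combinations, from 839 and 961 CPM with Pdx1 to 972 and 1355 CPM with Pdx1 and MafA. In triple cells of replicate 2 it had 762 CPM in the WT and 138 CPM in the 6SA culture.

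Tap1 had 35.5 to 56.1 CPM in the 6 samples with Ngn3 and MafA and 8.91 to 36.7 CPM in the 5 with MafA alone. The log2 difference of 1.21 ± 0.54 (SE) did not pass (edgeR adjusted p = 0.253), and Tap1 was among the members called with the replicate block and without replicate 1.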
